A study of Mus musculus with 32 samples.

Results

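The genes described here are the receptors and Smads through which Activin-A and TGF-β reach the nucleus. They are the type I receptors Acvr1, Acvr1b, Acvr1c and Tgfbr1, the type II receptors Acvr2a, Acvr2b and Tgfbr2, the receptor-activated Smads Smad2 and Smad3, and the common Smad4. Members were chosen by name, as rows of the count table whose Ensembl identifier maps to these symbols, and all 10 had a row among the 12451 genes listed. The samples allow each factor to be compared alone and in combination in a pure culture of tumor cells. mRNA of YUMM3.3, a Braf-mutant mouse melanoma cell line, was measured by BRB-seq, in which samples are barcoded, pooled and sequenced from the 3′ ends of their transcripts. There were 32 wells in 8 groups of 4. At each of 4 and 12 hrs a group was left untreated, another received Activin-A at 40 ng/ml, a further one IFN-γ at 20 ng/ml and the last both. The dose of Activin-A is that of the labels and methods, and other passages of the study give a higher one for these cultures. All wells held the same cell line in the same serum-containing medium, so that ligands of the serum were shared by treated and untreated cells. Quadruplicate wells were seeded alike and no source names separate passages, so p-values measure the spread between wells, which may be technical.

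Activin-A first binds a type II receptor, encoded by Acvr2a or Acvr2b, which then recruits and phosphorylates a type I receptor, mainly the product of Acvr1b (ALK4) and less often that of Acvr1c (ALK7). TGF-β instead uses Tgfbr2 as its type II and Tgfbr1 (ALK5) as its type I receptor, and both routes phosphorylate Smad2 and Smad3, which enter the nucleus with Smad4. The product of Acvr1 (ALK2) serves mainly BMPs and can also bind Activin-A together with type II receptors. IFN-γ acts through receptors of another family.

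Totals ranged from 654539 to 1455074 counts per well with a median of 988019.5. A well at 3 counts or fewer was treated as not above the floor of detection, which at these totals is 2.06 to 4.58 CPM (counts per 1e+06) and allows for counting error alone. Wells of a group differed by a chi-squared per gene between 1.16 and 2.89, and at 4 hrs the first Activin-A well stood apart, its 3 pairs being at 2.45, 2.73 and 2.89, above 1.54 for the next pair. The melanocyte genes Mitf, Sox10, Pmel, Tyr, Tyrp1, Dct and Mlana all had a median above the floor and summed to 319 to 448 CPM per well. Of the markers of other cells, 1 of 5 leukocyte genes had a row (0 to 6.08 CPM), those of endothelial cells and keratinocytes had 0 of 3 each, and 3 of 5 fibroblast or pericyte genes summed to 10.1 to 30.4 CPM, of which Pdgfra and Pdgfrb had a median above 3 counts.

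Which type I and type II receptors are detected in these cells was read from the counts in each well. A gene was taken as detected in a group when all 4 wells were above 3 counts. By this limit Acvr1, Acvr1b, Tgfbr1, Tgfbr2, Smad2, Smad3 and Smad4 were detected in all 8 groups. Acvr2a, a type II receptor of Activin-A, was detected in 5 groups and partly in the other 3, and Acvr2b, the other one, in 4 groups and partly in the other 4. Acvr1c was at or under the floor in each of the 32 wells. With a limit of any count above 0, or of 1 CPM, 9 of the 10 genes were present in all 8 groups, and with a limit above 10 counts, 7 were.

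Acvr1 had the highest counts among the type I receptors named at the start, with 37 to 125 per well and a median of 59. Bmpr1a and Acvrl1, further type I receptors with a row, were not part of this comparison. Tgfbr1 had 18 to 73 with a median of 30.5, and Acvr1b had 12 to 49 with a median of 26.5. The type I receptor that Activin-A mainly uses was thus counted in every well, at counts that overlapped those of its TGF-β counterpart. Acvr1, Tgfbr1, Acvr1b and Acvr1c had 4036 counts together over all wells. Of these, 53.7% came from Acvr1, 24.8% from Tgfbr1, 21.3% from Acvr1b and 0.223% from Acvr1c.

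The 9 counts of Acvr1c fell in 6 wells. In IFN-γ at 4 hrs the wells held 0, 0, 3 and 2 counts, and with both factors at 4 hrs 1, 0, 0 and 0. At 12 hrs they were 1, 0, 0 and 0 with IFN-γ and 0, 1, 0 and 1 with both factors. Wells without IFN-γ held 0 counts at either time. All of the counts thus lay in wells with IFN-γ, but every well was at or under the floor, so that no fold was computed and a difference was not tested.

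Tgfbr2, the TGF-β type II receptor, had 38 to 120 counts per well. It made up 83.4% of the 2576 counts of Tgfbr2, Acvr2a and Acvr2b together. Acvr2a contributed 8.81% and Acvr2b 7.80%. Bmpr2, a type II receptor for BMPs that also had a row, was not part of this sum. Acvr2a counts in untreated wells were 10, 8, 1 and 5 at 4 hrs and 6, 7, 7 and 4 at 12 hrs, and with Activin-A they were 14, 6, 8 and 10 at 4 hrs and 6, 10, 4 and 7 at 12 hrs. With IFN-γ they were 10, 8, 7 and 6 at 4 hrs and 10, 2, 8 and 4 at 12 hrs, and with both factors 11, 9, 11 and 9, then 3, 7, 2 and 7. Acvr2a was thus low throughout, and within each time its treated wells overlapped the untreated ones. It overlaps Orc4, a gene of the origin recognition complex with 1089 counts over all wells, on the opposite strand, and since the strand setting of the counting is not given in the sources used here, reads of the overlapping part could not be assigned.

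Acvr2b counts in untreated wells were 9, 11, 6 and 2 at 4 hrs and 6, 8, 8 and 3 at 12 hrs, and with Activin-A they were 10, 11, 4 and 5, then 11, 5, 5 and 1. With IFN-γ they were 5, 7, 3 and 7 at 4 hrs and 5, 7, 4 and 10 at 12 hrs, and with both factors 5, 5, 6 and 10, then 4, 5, 9 and 4. The highest of these counts was 11 and the lowest 1, and no group stood clear of another. The coefficient of variation between wells of a group was 50.5% for Acvr2b and 40.8% for Acvr2a, and counting alone gives 40.9% and 38.1% at these counts.

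Smad4 had 66 to 157 counts per well, Smad2 31 to 84 and Smad3 27 to 76. Smad4, the partner of all receptor-activated Smads, held 51.2% of the 6377 counts of Smad4, Smad2 and Smad3 together. Smad2 held 25.0% and Smad3 23.8%. Coefficients of variation between wells of a group were 11.4% for Smad4, 13.8% for Smad2 and 10.3% for Smad3, beside 10.3%, 14.7% and 15.0% from counting alone. For Acvr1 the wells varied by 18.8% beside 12.5% from counting, for Tgfbr2 by 15.7% beside 12.6%, for Tgfbr1 by 18.5% beside 18.4%, and for Acvr1b by 18.0% beside 19.9%. Most of the spread between wells was therefore of the size that counting gives, Acvr1 being the furthest above it.

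Levels were put in order by the mean CPM (normalized by TMM) over the 32 wells. Smad4 was first at 99.8 CPM (79.5 to 126), followed by Acvr1 at 66.2 (40.5 to 113) and Tgfbr2 at 66.0 (40.8 to 92.1). Smad2 was at 48.8 CPM (34.7 to 71.5), Smad3 at 46.5 (32.7 to 56.9), Tgfbr1 at 30.8 (15.7 to 47.8) and Acvr1b at 26.5 (15.7 to 37.6). Acvr2a at 7.08 CPM (1.09 to 12.2), Acvr2b at 6.22 (1.23 to 16.7) and Acvr1c at 0.332 (0 to 4.38) came last. Ranges of neighbours in this order overlapped, with the exception of Acvr1b and Acvr2a, and Acvr1b exceeded Acvr2a in each of the 32 wells. Percentiles were taken among the 12451 genes with a row, each of which had a count above 0 in at least 4 wells. The mean CPM of Smad4 lay at percentile 83.3, that of Acvr1b at 50.7, that of Acvr2a at 26.1 and that of Acvr2b at 24.5.

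**Figure D1:**
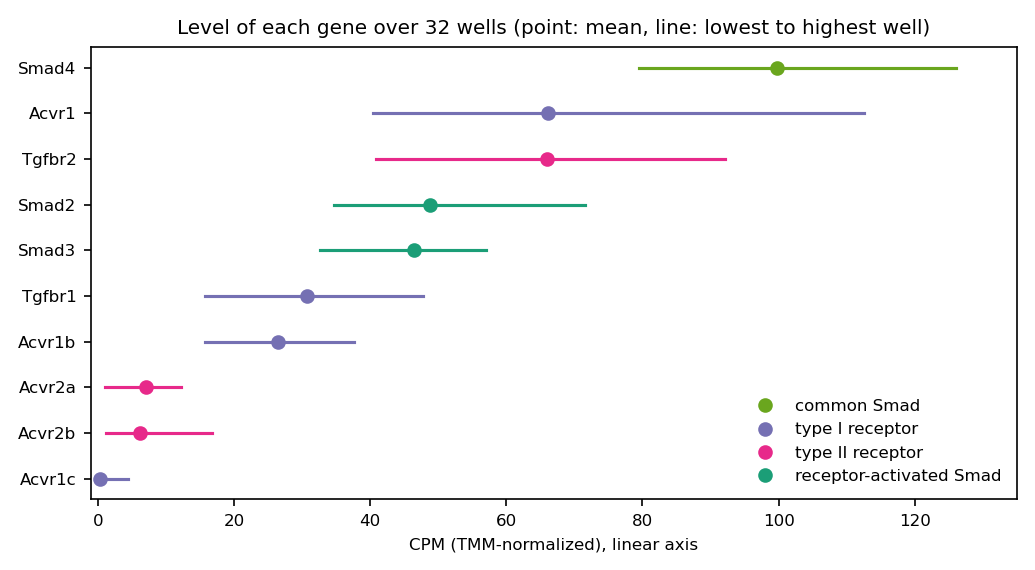
Mean CPM of each of the 10 genes over 32 wells (point) with the lowest and highest well (line), on a linear axis and colored by role. Smad4 is highest at 99.8 CPM, and Acvr2a, Acvr2b and Acvr1c are lowest, at 7.08, 6.22 and 0.332 CPM.

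BRB-seq counts the 3′ end of each transcript, so that CPM are not divided by length. When CPM were nevertheless divided by the length of the longest annotated transcript, Smad4 (29.5 CPM per kb) and Acvr1 (20.1) remained first and second. Smad3 (9.13) then preceded Tgfbr2 (8.16), Smad2 (6.04), Acvr1b (5.99) and Tgfbr1 (5.35), and Acvr2b (1.96) preceded Acvr2a (1.24), with Acvr1c at 0.0362. Of the 45 pairs of genes, 41 kept their order, and the order of Smad3 against Smad2 and Tgfbr2, of Tgfbr1 against Acvr1b and of Acvr2a against Acvr2b depended on the scale.

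The promoters of the receptors that Activin-A and TGF-β use, other than Acvr1c, are shown beside that of Irf1, a transcription factor gene that IFN-γ induces, to display which of them holds the letters that the factors' transcription factors bind. RefSeq's table for GRCm38.p6 gives 300 bases, from 250 before to 50 after the transcription start, for 8 of the 10 genes, and Smad2 and Smad4 were not matched. The letters searched on both strands were TTCNNNGAA, known as the interferon-gamma activated site, and CAGAC, a short Smad-binding element whose other strand reads GTCTG, and capitals mark them. Neither contains the other. Each line is written 5′ to 3′ on the strand of the gene, for Acvr1b chr15:101173822-101174121 (plus strand), Acvr2a chr2:48813859-48814158 (plus), Acvr2b chr9:119401928-119402227 (plus), Tgfbr2 chr9:116175314-116175613 (minus), the first start of Tgfbr1 chr4:47352972-47353271 (plus) and the first start of Irf1 chr11:53769764-53770063 (plus).
Acvr1b: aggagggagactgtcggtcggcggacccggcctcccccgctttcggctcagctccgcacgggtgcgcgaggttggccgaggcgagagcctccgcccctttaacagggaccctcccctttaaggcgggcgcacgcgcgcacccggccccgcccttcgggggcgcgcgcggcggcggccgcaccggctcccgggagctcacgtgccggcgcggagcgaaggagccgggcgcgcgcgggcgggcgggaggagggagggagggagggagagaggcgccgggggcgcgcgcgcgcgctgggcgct
Acvr2a: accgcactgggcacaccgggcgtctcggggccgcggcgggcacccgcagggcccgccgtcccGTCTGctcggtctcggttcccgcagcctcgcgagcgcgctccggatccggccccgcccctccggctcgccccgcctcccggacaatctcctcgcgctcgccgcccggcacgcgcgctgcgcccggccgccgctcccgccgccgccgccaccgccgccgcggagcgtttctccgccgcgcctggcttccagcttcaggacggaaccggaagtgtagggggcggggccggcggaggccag
Acvr2b: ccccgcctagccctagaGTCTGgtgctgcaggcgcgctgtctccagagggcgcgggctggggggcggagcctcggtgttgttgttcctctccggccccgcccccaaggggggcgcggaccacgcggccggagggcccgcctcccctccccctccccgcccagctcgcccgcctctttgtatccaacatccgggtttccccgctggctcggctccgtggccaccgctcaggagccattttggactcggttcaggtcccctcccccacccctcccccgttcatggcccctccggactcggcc
Tgfbr2: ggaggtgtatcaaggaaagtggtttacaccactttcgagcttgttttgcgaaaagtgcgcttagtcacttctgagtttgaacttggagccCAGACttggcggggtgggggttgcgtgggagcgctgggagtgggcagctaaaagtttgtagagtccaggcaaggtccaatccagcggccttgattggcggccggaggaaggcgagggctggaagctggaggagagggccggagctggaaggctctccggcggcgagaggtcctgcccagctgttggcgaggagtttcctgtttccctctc
Tgfbr1: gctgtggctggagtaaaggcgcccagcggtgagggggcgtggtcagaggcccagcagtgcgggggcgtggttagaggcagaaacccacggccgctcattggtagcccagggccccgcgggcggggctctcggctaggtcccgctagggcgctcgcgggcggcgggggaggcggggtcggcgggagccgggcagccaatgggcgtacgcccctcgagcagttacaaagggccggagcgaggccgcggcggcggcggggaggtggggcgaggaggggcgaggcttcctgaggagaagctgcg
Irf1: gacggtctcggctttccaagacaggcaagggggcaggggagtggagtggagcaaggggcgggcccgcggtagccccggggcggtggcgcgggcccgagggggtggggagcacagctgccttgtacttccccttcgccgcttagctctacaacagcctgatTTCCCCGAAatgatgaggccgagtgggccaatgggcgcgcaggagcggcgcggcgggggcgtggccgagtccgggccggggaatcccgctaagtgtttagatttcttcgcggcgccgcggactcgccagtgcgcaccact
TTCNNNGAA was found in 8.30% of the 32851 promoters of the table. It was in 0 of the members' windows and once in that of Irf1. CAGAC was in 49.6% of all windows, and Acvr2a, Acvr2b and Tgfbr2 as well as the second start of Tgfbr1 held 1 each. The palindrome GTCTAGAC, which is in 0.213% of the windows, was not among them. The windows were rich in G and C, from 59.0% in Tgfbr2 to 83.7% in Acvr1 at their first starts.

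Whether the factors alter the expression of their own signaling components was asked in fits over the whole table. Genes with low counts were removed (filterByExpr), and adjusted p-values come from the quasi-likelihood test of edgeR, corrected over all genes tested (Benjamini-Hochberg), and genes were called at an adjusted p under 0.05. Of the 10 genes, 8 passed the filter at 4 hrs and 7 at 12 hrs. Acvr1c and Acvr2b did not pass at either time, nor Acvr2a at 12 hrs, and values of Acvr2a and Acvr2b there are from a fit without the filter. Readouts of both factors differed from untreated cells. Ccn2, a matrix-associated target of Smads, was at 133 ± 11.7 CPM in untreated cells and 491 ± 48.6 with Activin-A at 12 hrs (SD, n = 4 each), and Irf1 was at 44.8 ± 6.59 in untreated cells and 697 ± 26.6 with IFN-γ, with averaged log2FCs of 1.69 and 3.96 (edgeR adjusted p = 3.33e-47 and 3.44e-78).

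With Activin-A, 0 members were called against untreated cells at 4 hrs (of 8 tested) or at 12 hrs (of 7 tested), where 1.64% and 2.41% of all genes were. An unadjusted p under 0.05 was reached by 1 member at each time, Acvr1 at 4 hrs and Smad3 at 12 hrs, and DESeq2 called 0 at either. When Activin-A was averaged over the wells with and without IFN-γ, which compares 8 wells with 8, 0 members were called at 4 hrs beside 3.62% of all genes and 0 at 12 hrs beside 3.88%, with 1 unadjusted p under 0.05 at each time. DESeq2 called 0, though at 12 hrs it gave no adjusted p for Acvr1b and Tgfbr1. For the 7 genes other than Acvr2a, Acvr2b and Acvr1c, the 95% intervals of these averaged effects lay within 0.744- to 1.39-fold at 4 hrs and within 0.709- to 1.16-fold at 12 hrs. These bounds are the widest over the 7 genes, and changes beyond them were outside every interval. At 12 hrs the averaged log2FC of all 7 members tested was below 0, with a median of -0.06 beside -0.00 over all genes.

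Among the members tested, Acvr1 was the receptor with the smallest p for Activin-A at 4 hrs. Its wells were at 79.4, 81.2, 73.0 and 61.5 CPM in untreated cells and at 77.3, 82.1, 91.0 and 113 CPM with Activin-A. They were at 66.9, 71.9, 54.0 and 65.6 CPM with IFN-γ and at 52.4, 81.5, 95.5 and 83.3 CPM with both factors. Wells with and without Activin-A overlapped in both backgrounds. The averaged log2FC was 0.28 (SE 0.10, 95% interval 0.08 to 0.48, edgeR adjusted p = 0.120). Without replicate 1 of Activin-A, the well that stood apart from its group, it was 0.33 (edgeR adjusted p = 0.0349), and without replicate 1 of both factors 0.35 (edgeR adjusted p = 0.0201), so that single wells decided this call. At 12 hrs the log2FC of Acvr1 was -0.01 (SE 0.11), and the difference between the times was -0.29 (SE 0.16, edgeR adjusted p = 0.727).

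Smad3 had the lowest p for Activin-A at 12 hrs. The untreated wells were at 54.5, 56.9, 51.4 and 54.6 CPM and the wells with Activin-A at 42.3, 32.7, 45.2 and 39.4 CPM, which did not overlap. Groups failed to overlap in 6.88% of all genes in this comparison. The log2FC was -0.45 (SE 0.15, edgeR adjusted p = 0.110), and averaged over IFN-γ it was -0.27 (SE 0.11, edgeR adjusted p = 0.207). With IFN-γ the wells were at 44.6, 40.5, 51.5 and 43.8 CPM and with both factors at 43.7, 40.3, 34.1 and 50.9 CPM, and these overlapped. At 4 hrs the untreated wells of Smad3 were at 56.7, 52.6, 53.4 and 55.6 CPM and the wells with Activin-A at 49.8, 48.6, 54.3 and 49.5 CPM. These overlapped at a single well, with a log2FC of -0.10 (SE 0.14, edgeR adjusted p = 0.859).

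The type I and type II receptors of Activin-A showed no called response to their ligand. Acvr1b wells at 4 hrs were at 28.8, 21.0, 24.0 and 27.8 CPM in untreated cells and at 15.7, 30.4, 24.5 and 26.1 CPM with Activin-A. At 12 hrs they were at 37.6, 29.4, 27.3 and 27.9 CPM and at 29.5, 23.1, 30.8 and 33.2 CPM, and the groups overlapped at both times. The averaged log2FC of Acvr1b was -0.11 (95% interval -0.43 to 0.20) at 4 hrs and -0.20 (-0.48 to 0.08) at 12 hrs. Without replicate 1 of Activin-A, the well that stood apart, the value at 4 hrs was -0.01 (edgeR adjusted p = 0.993). For Acvr2a the averaged log2FC was 0.37 (-0.17 to 0.93) and 0.01 (-0.63 to 0.65), and for Acvr2b 0.04 (-0.57 to 0.66) and -0.12 (-0.75 to 0.52). Changes inside these wide intervals were not detectable at this depth.

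Smad2 at 4 hrs was at 54.1, 51.6, 48.0 and 43.7 CPM in untreated wells and at 55.0, 63.8, 58.6 and 56.7 CPM with Activin-A. The groups did not overlap, as in 6.21% of all genes, and the log2FC was 0.23 (SE 0.15, edgeR adjusted p = 0.600). In the presence of IFN-γ the Smad2 wells were at 45.0, 54.6, 55.5 and 71.5 CPM without Activin-A and at 58.6, 45.0, 43.5 and 60.9 CPM with it, and these overlapped. Averaged over IFN-γ, the log2FC of Smad2 was 0.04 (SE 0.10). Smad4 was at 0.12 (SE 0.08), Tgfbr2 at -0.02 (SE 0.11) and Tgfbr1 at 0.09 (SE 0.13) at 4 hrs.

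With IFN-γ, 0 members were called against untreated cells at 4 hrs (of 8) or 12 hrs (of 7), beside 5.06% and 9.25% of all genes, and averaged over Activin-A 0 were called beside 9% and 14.9%. DESeq2 called 0 in each. An unadjusted p under 0.05 was reached by 1 member in each comparison but the averaged one at 12 hrs, where 2 reached it. The intervals of the averaged effects for the 7 genes with higher counts lay within 0.700- to 1.24-fold at 4 hrs and 0.660- to 1.13-fold at 12 hrs. At 12 hrs the log2FC of all 7 members tested was below 0, with a median of -0.13 beside -0.01 over all genes.

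Smad3 came closest to the threshold with IFN-γ at 4 hrs. Its wells with IFN-γ were at 46.2, 44.2, 39.4 and 36.6 CPM, all below the 4 untreated wells given above, whereas 9.36% of all genes had groups that did not overlap. The log2FC was -0.39 (SE 0.15, edgeR adjusted p = 0.167). With both factors the wells were at 35.6, 42.4, 42.6 and 52.9 CPM, against 48.6 to 54.3 CPM with Activin-A alone, and these overlapped. Averaged over Activin-A the log2FC was -0.30 (SE 0.10, 95% interval -0.51 to -0.09, edgeR adjusted p = 0.0581), and Smad3 was called when totals alone scaled the wells (log2FC -0.35, adjusted p = 0.0198) and when all 32 wells were fitted together (log2FC -0.31, adjusted p = 0.0399). It was also called without replicate 4 of both factors (log2FC -0.35, edgeR adjusted p = 0.0256).

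The TGF-β receptors had the lowest averaged log2FC with IFN-γ at 12 hrs. Tgfbr2 wells were at 92.1, 70.3, 77.6 and 70.8 CPM in untreated cells and at 77.1, 66.4, 52.6 and 61.9 CPM with IFN-γ. They were at 75.0, 88.4, 59.6 and 71.3 CPM with Activin-A and at 62.8, 69.4, 69.2 and 63.6 CPM with both factors. These groups overlapped. Averaged over Activin-A, the log2FC of Tgfbr2 was -0.23 (SE 0.09, edgeR adjusted p = 0.103), and that of Tgfbr1 was -0.30 (SE 0.15, edgeR adjusted p = 0.188). Tgfbr2 was called when totals alone scaled the wells (log2FC -0.26, adjusted p = 0.0407) and without replicate 3 of Activin-A (log2FC -0.27, edgeR adjusted p = 0.0410). Tgfbr1 wells at 12 hrs were at 29.9, 25.8, 36.1 and 36.0 CPM in untreated cells and at 28.9, 29.1, 24.7 and 15.7 CPM with IFN-γ. With both factors they were at 20.2, 21.3, 29.7 and 25.5 CPM, beside 24.7, 30.7, 23.6 and 34.4 CPM with Activin-A, and these too overlapped.

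**Figure D2:**
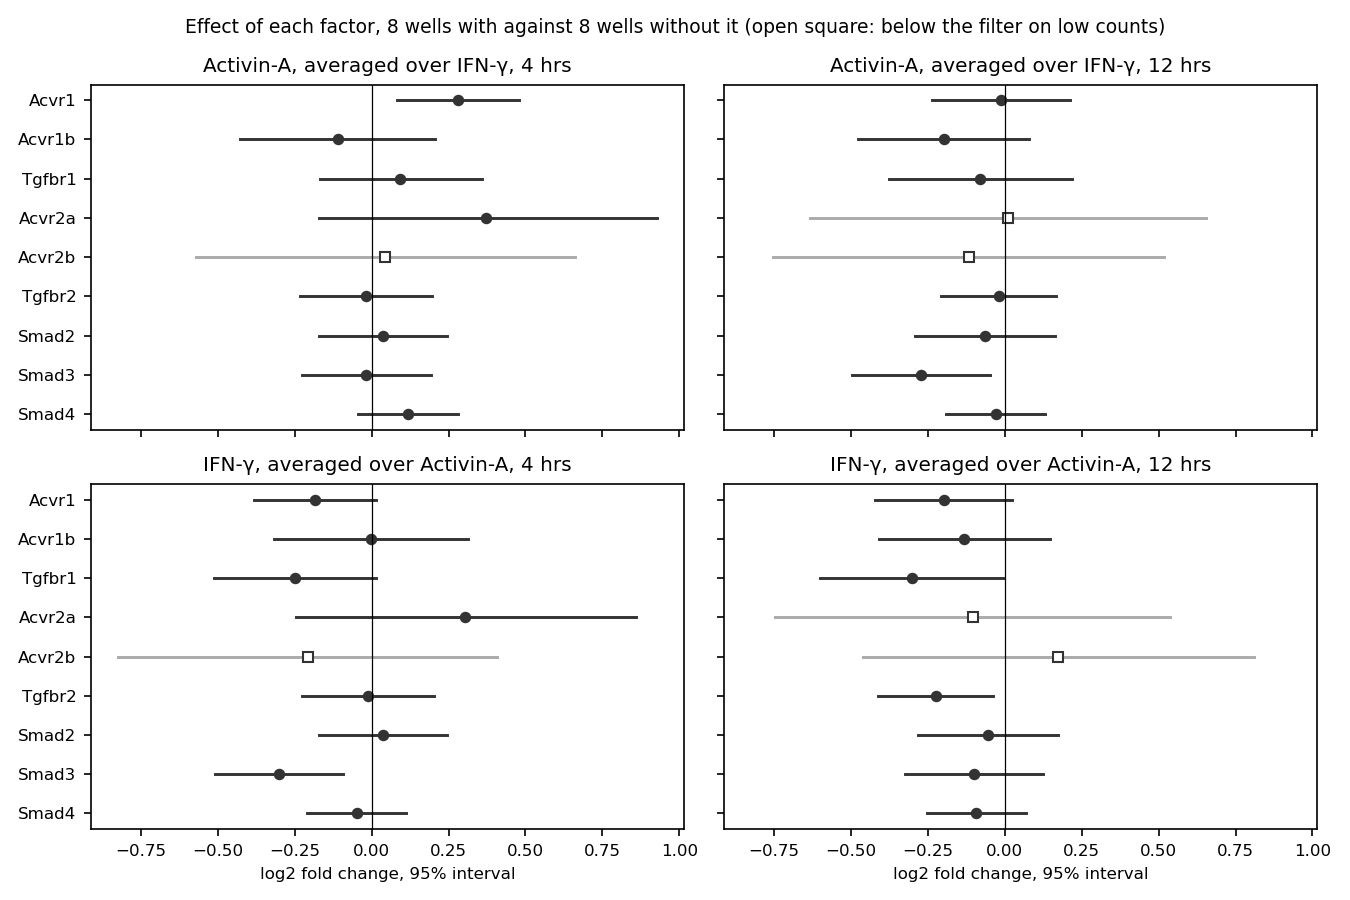
Log2 fold change with its 95% interval for 9 genes, for Activin-A (top) and IFN-γ (bottom), each averaged over the other factor, at 4 hrs (left) and 12 hrs (right), comparing 8 wells with 8. Open squares are values from the fit without the filter, and the widest intervals belong to Acvr2a and Acvr2b. No gene was called. Intervals were clear of 0 for Acvr1 (0.28) at 4 hrs and Smad3 (-0.27) at 12 hrs with Activin-A, and for Smad3 (-0.30) at 4 hrs and Tgfbr1 (-0.30) and Tgfbr2 (-0.23) at 12 hrs with IFN-γ.

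Adding the second factor was tested against each factor alone. Of both factors against IFN-γ, 0 members were called at 4 hrs (of 8) and at 12 hrs (of 7), beside 0.81% and 1.03% of all genes, with 0 at an unadjusted p under 0.05. Of both factors against Activin-A, 0 were called beside 6.07% and 9.62% of all genes, with 1 unadjusted p under 0.05 at 4 hrs and 0 at 12 hrs. DESeq2 called 0 in all 4 comparisons, but gave no adjusted p for 2 members in either comparison with IFN-γ. The member at an unadjusted p under 0.05 at 4 hrs was Tgfbr1, whose wells at 4 hrs were at 47.8, 35.0, 33.3 and 44.1 CPM with Activin-A and at 32.5, 31.4, 29.3 and 27.8 CPM with both factors. The groups did not overlap, as in 10.1% of all genes, and the log2FC was -0.44 (SE 0.18, edgeR adjusted p = 0.175). Untreated wells of Tgfbr1 at 4 hrs, at 26.2, 33.4, 38.2 and 38.7 CPM, and wells with IFN-γ, at 30.4, 37.2, 40.9 and 23.0 CPM, lay across both ranges.

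No member had groups clear of each other with both factors against IFN-γ at 4 or 12 hrs, beside 6.01% and 5.66% of all genes, nor with both factors against Activin-A (12.2%) or IFN-γ against untreated cells (12.5%) at 12 hrs.

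The interaction, the effect of Activin-A with IFN-γ minus its effect without, was called for 0 members at either time, beside 0% of all genes at 4 hrs and 0.0111% at 12 hrs. No member reached an unadjusted p under 0.05 in these tests and DESeq2 called 0. The values ranged from -0.38 for Smad2 to 0.17 for Smad3 at 4 hrs. At 12 hrs they ranged from -0.18 for Acvr1b to 0.36 for Smad3, with an SE of 0.23 for the latter. The effects of Activin-A and of IFN-γ were also compared between the times, and 0 of 8 members were called for either, beside 0.107% and 1.31% of all genes, with 0 at an unadjusted p under 0.05. DESeq2 gave an adjusted p for only 1 of the 8 members in the first of these comparisons and 5 in the second, and called none of those.

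**Figure D3:**
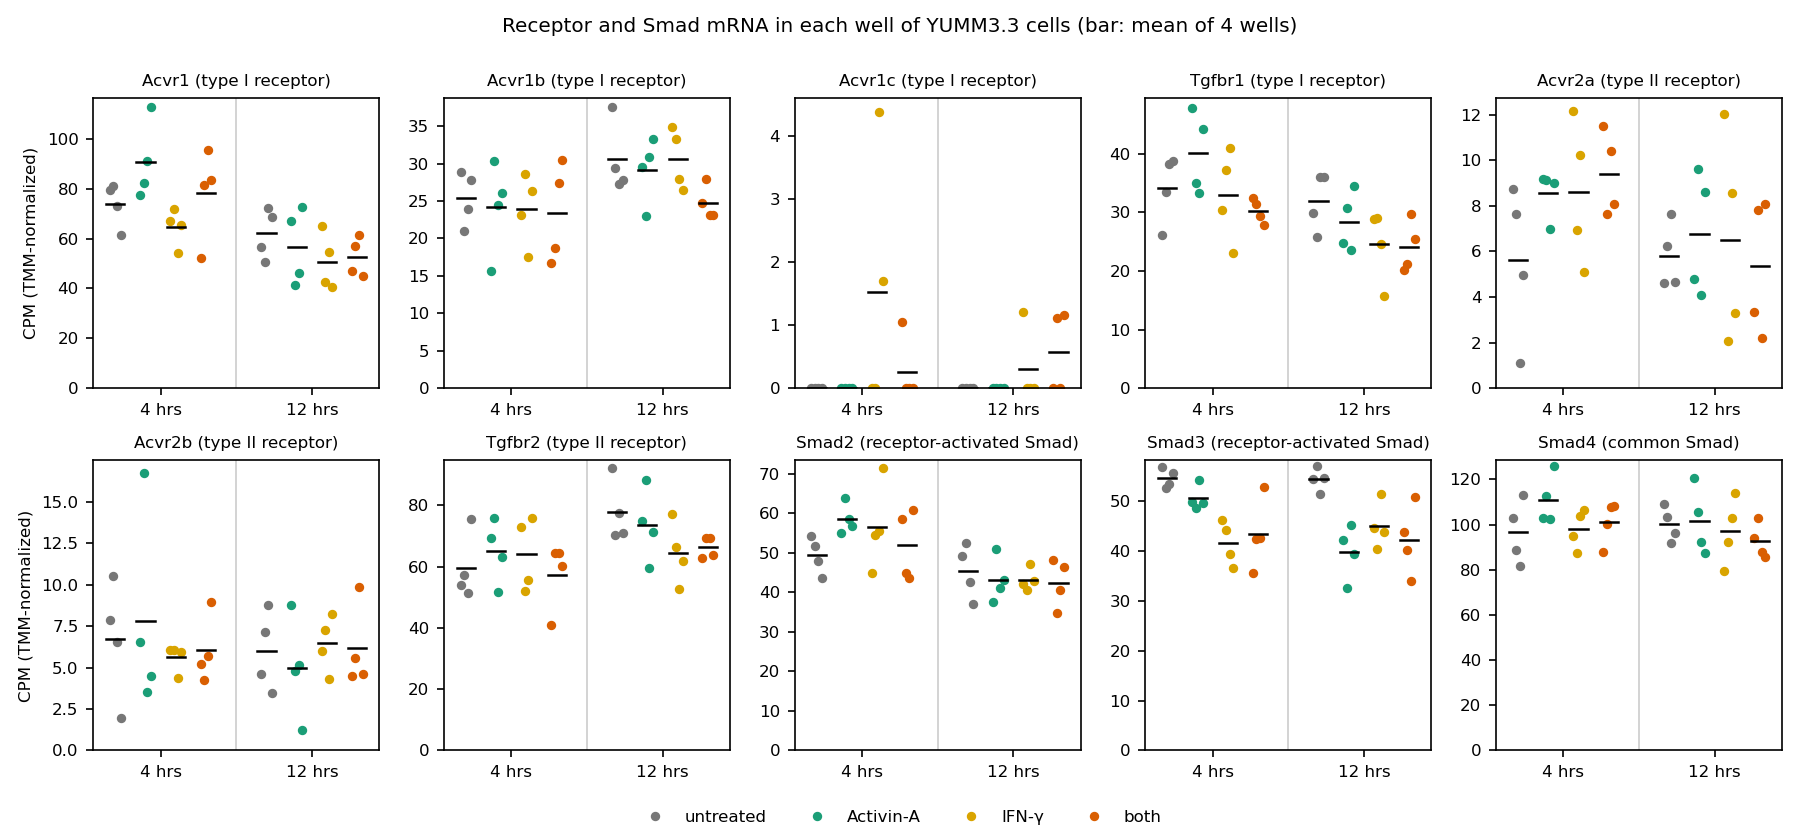
TMM-normalized CPM of each of the 10 genes in every well (points) with the mean of 4 wells (bars), for untreated cells (grey), Activin-A (green), IFN-γ (yellow) and both factors (orange) at 4 and 12 hrs, on axes that start at 0. The means of Acvr1, Tgfbr1 and Smad2 are lower at 12 hrs than at 4 hrs in all 4 treatments.

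Calls among the members came from the comparison of the times. When 12 hrs was compared with 4 hrs over all treatments, 16 wells against 16, 4 of the 8 members tested were called, 3 lower and 1 higher, beside 26.6% of all genes (14% higher and 12.6% lower). DESeq2 called 3 of the 8, beside 1924 of all 9332 genes tested. The type I receptors Acvr1 and Tgfbr1 and the signal carrier Smad2 fell, and the type II receptor Tgfbr2 rose. In bulk wells, fewer cells that express a gene and less of its RNA per cell cannot be told apart. This average mixes hours in culture with hours of treatment, whereas untreated wells, also compared alone below, had hours in culture only.

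Acvr1 at 4 hrs spanned 52.4 to 113 CPM (median 78.4), and at 12 hrs 40.5 to 72.6 CPM (median 55.7). The mean was 76.8 ± 15.4 CPM at 4 hrs and 55.6 ± 11.2 at 12 hrs (SD, n = 16 each). The ranges overlapped, and the mean was lower at 12 hrs in all 4 treatments. Acvr1 fell by 0.48 on the log2 scale (SE 0.08, 95% interval -0.64 to -0.33, edgeR adjusted p = 6.47e-07), a change of -28.4%. With Activin-A the wells at 12 hrs, at 67.0, 41.3, 46.2 and 72.6 CPM, were all below those at 4 hrs given above, and in untreated cells they were at 56.8, 50.7, 72.2 and 68.5 CPM and overlapped those at 4 hrs. The untreated cells alone gave a log2FC of -0.28 (SE 0.15, edgeR adjusted p = 0.341).

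Tgfbr1 at 4 hrs spanned 23.0 to 47.8 CPM (median 33.4), and at 12 hrs 15.7 to 36.1 CPM (median 27.4). It fell by 0.35 on the log2 scale (SE 0.10, 95% interval -0.55 to -0.15, edgeR adjusted p = 0.00473), with lower means in all 4 treatments and ranges that overlapped. In untreated cells alone its log2FC was -0.10 (SE 0.19, edgeR adjusted p = 0.840). Smad2 at 4 hrs spanned 43.5 to 71.5 CPM (median 54.8), and at 12 hrs 34.7 to 52.5 CPM (median 42.8). It fell by 0.31 (SE 0.08, 95% interval -0.46 to -0.16, edgeR adjusted p = 0.00102), again with lower means in all 4 treatments, and untreated cells alone gave -0.10 (SE 0.15, edgeR adjusted p = 0.784). The wells of Smad2 with Activin-A were at 37.5, 50.9, 41.1 and 43.0 CPM at 12 hrs, all below those at 4 hrs, and so were those of Smad3, whereas 10.8% of all genes had groups that did not overlap in that comparison. In untreated cells, with IFN-γ and with both factors, 0 of 8 members had wells at 12 hrs clear of those at 4 hrs, beside 11%, 13.2% and 12.5% of all genes. The calls of Acvr1, Tgfbr1 and Smad2 were kept in each of 32 fits with a single well removed, among them that without replicate 1 of Activin-A at 4 hrs (-0.51, -0.32 and -0.32).

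Tgfbr2 at 4 hrs spanned 40.8 to 76.0 CPM (median 61.5), and at 12 hrs 52.6 to 92.1 CPM (median 69.8). It rose by 0.20 on the log2 scale (SE 0.07, 95% interval 0.05 to 0.34, edgeR adjusted p = 0.0333), a change of 14.7%, and its mean was higher at 12 hrs in all 4 treatments. This call was the least firm of the 4. DESeq2 gave an adjusted p of 0.0744, and the call was lost in 11 of 32 fits with a single well removed (edgeR adjusted p from 0.0508 to 0.0879 there). In untreated cells alone, with wells at 54.1, 57.3, 51.2 and 75.4 CPM at 4 hrs and the wells at 12 hrs given above, the log2FC was 0.40 (SE 0.14, edgeR adjusted p = 0.0849). Without replicate 4 of untreated cells at 4 hrs it was 0.53 (edgeR adjusted p = 0.0306), and with only the groups compared in the fit 0.40 (edgeR adjusted p = 0.0455). In the comparison as first given, 0 of 8 members were called beside 4.9% of all genes, with 1 at an unadjusted p under 0.05 and 0 by DESeq2, which gave no adjusted p for Acvr2a.

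The other members gave smaller or less certain values between the times. Acvr1b was at 24.2 ± 4.93 CPM at 4 hrs and 28.8 ± 4.35 at 12 hrs, with a log2FC of 0.25 (SE 0.10, edgeR adjusted p = 0.0644) and higher means in all 4 treatments. Smad3 was at 47.5 ± 6.76 and 45.4 ± 7.29 CPM (log2FC -0.07, SE 0.07) and Smad4 at 102 ± 11.4 and 97.9 ± 11.1 CPM (log2FC -0.04, SE 0.06). The activin type II receptors were at -0.39 (SE 0.21, Acvr2a) and -0.08 (SE 0.22, Acvr2b, without the filter).

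**Figure D4:**
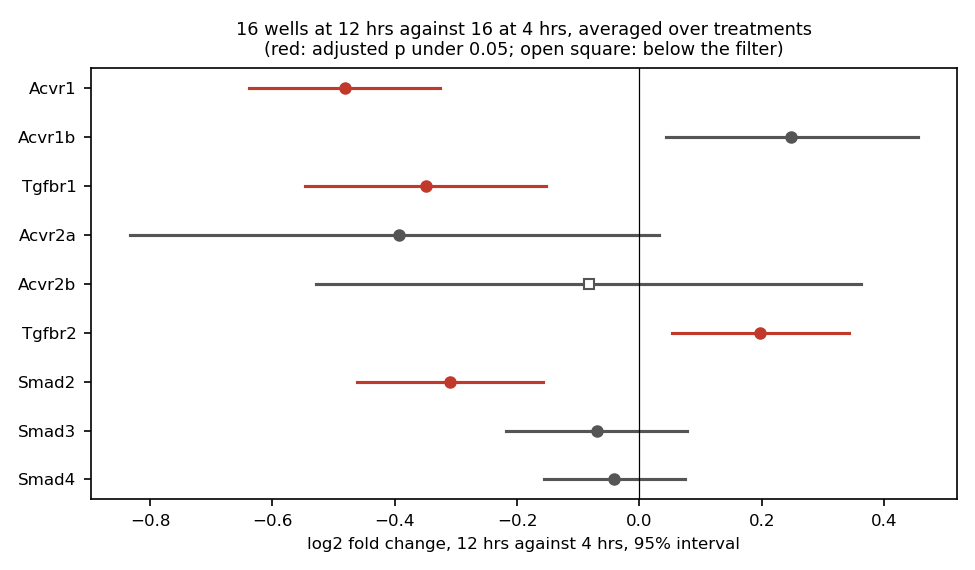
Log2 fold change of 12 hrs against 4 hrs with its 95% interval for 9 genes, 16 wells against 16 averaged over treatments; red marks an edgeR adjusted p under 0.05 and the open square the fit without the filter. Acvr1 (-0.48), Tgfbr1 (-0.35) and Smad2 (-0.31) lie below 0 and Tgfbr2 (0.20) above it.

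Genes whose log2 CPM followed the 4 called members most closely over the 32 wells are given as a description, among 7017 genes with at least 20 counts on average. Among the genes most like Acvr1 were Sept9 (Pearson's r = 0.76) and Myo1e (0.75), and Tgfbr1 was most like the laminin gene Lamb1 (0.72), Ier2 (0.70) and Igfbp3 (0.70). Smad2 was most like Psme3 (0.71), H13 (0.68) and Bag3 (0.68), and Tgfbr2 most like Dnajc30 (0.60), Fmnl1 (0.59) and Arhgef18 (0.59). The wells share time, treatment and depth, so that these values are no measure of shared control.

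The other genes of the pathway were counted from a list of 52 symbols: further receptors, co-receptors and decoys, other Smads, partners and turnover factors. A row was present for 46 of the symbols. Arkadia, without a row, is another name of Rnf111, which had a row. Cripto and Tdgf1, both without a row, name the same gene. Under Activin-A averaged over IFN-γ, 9 of the 43 tested at 4 hrs rose and 2 fell, and 3 of the 41 tested at 12 hrs rose and 2 fell, with a median log2FC of 0.02 and 0.05 beside -0.00 over all genes at either time. That is 25.6% and 12.2% of the listed genes tested, beside 3.62% and 3.88% of all genes, and the members had 0 calls in the same fits. The list was chosen with earlier results of these data known. It holds Pmepa1, Skil and Smad7, which were also listed as readouts of Activin-A. Its shares of calls, here and below, are therefore a description and not a test.

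Among those that rose with Activin-A at 4 hrs were inhibitors of Smad signaling. Pmepa1, which sequesters receptor-activated Smads, was at 48.9, 65.0, 48.0 and 60.5 CPM in untreated wells at 4 hrs and at 344, 313, 282 and 358 CPM with Activin-A, with an averaged log2FC of 2.50 (SE 0.08, edgeR adjusted p = 2.81e-33). Smad7, the inhibitory Smad that directs receptors to degradation, rose by 0.60 (SE 0.12, adjusted p = 0.000491), Skil by 0.86 (SE 0.16, adjusted p = 0.000223) and Ski, another Smad corepressor, by 0.42 (SE 0.07, adjusted p = 1.22e-05). Smad7 was at 0.86 against untreated cells (SE 0.16, edgeR adjusted p = 0.000458). With both factors against IFN-γ it was at 0.34 (SE 0.17, edgeR adjusted p = 0.546). Skil was called in both comparisons (0.79 and 0.93). The interaction at 4 hrs was called for 0 of the 43 listed genes. Ldlrad4, Tgif1 and the co-receptors Eng and Cd109 rose too at 4 hrs. Bmpr2, a type II receptor for BMPs, rose by 0.41 (SE 0.12, adjusted p = 0.0438) at 4 hrs. At 12 hrs Pmepa1 rose 2.64-fold and Smad7 (log2FC 0.53) and Cd109 (0.28) rose as well, whereas Skil (0.42), Ski (0.23), Bmpr2 (0.28), Tgif1 (0.12) and Eng (0.04) were not called in the averaged comparison. Against untreated cells alone at 12 hrs, Bmpr2 (0.63, SE 0.16, edgeR adjusted p = 0.00996) and Tgif1 (0.28, SE 0.08, edgeR adjusted p = 0.0414) rose with Activin-A, and with both factors against IFN-γ they were at -0.06 and -0.03 (edgeR adjusted p = 0.957 and 0.949). Skil at 12 hrs was at 0.78 (SE 0.26, edgeR adjusted p = 0.0988) and 0.06 (SE 0.36, edgeR adjusted p = 0.985) in the same 2 comparisons. At 4 hrs Bmpr2 against untreated cells was at 0.58 (SE 0.17, edgeR adjusted p = 0.0536). Among these genes, the averaged effect of Activin-A was called different between the times for Pmepa1 (-1.10, SE 0.16, edgeR adjusted p = 8.21e-06).

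The genes that fell with Activin-A were Tgfbr3 and Rgmb. Tgfbr3, which encodes betaglycan, a co-receptor that presents TGF-β and holds inhibin at activin type II receptors, was at 13.1, 12.4, 12.0 and 10.9 CPM in untreated wells at 4 hrs and at 7.21, 6.08, 8.75 and 5.40 CPM with Activin-A. At 12 hrs it was at 15.4, 20.5, 24.1 and 19.7 CPM and at 7.18, 7.68, 14.4 and 11.1 CPM, and these groups did not overlap at either time, as in 6.21% and 6.88% of all genes. The wells with IFN-γ (15.6 to 24.8 CPM) and with both factors (6.62 to 16.1 CPM) overlapped at 4 hrs, and those at 12 hrs (16.6 to 30.1 and 7.69 to 15.0 CPM) did not, as in 5.66% of all genes. Averaged over IFN-γ, Tgfbr3 fell by 0.71 at 4 hrs (SE 0.21, edgeR adjusted p = 0.0462) and by 0.85 at 12 hrs (SE 0.20, edgeR adjusted p = 0.00385). Against untreated cells alone it was at -0.78 at 4 hrs (SE 0.33, edgeR adjusted p = 0.302) and fell by 0.99 at 12 hrs (SE 0.29, edgeR adjusted p = 0.0380). Rgmb, a BMP co-receptor, fell by 0.32 and 0.29.

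Under IFN-γ averaged over Activin-A, 3 of the 43 listed genes rose and 3 fell at 4 hrs, and 3 of the 41 rose and 7 fell at 12 hrs. These are 14.0% and 24.4% of those tested, beside 9% and 14.9% of all genes. Smurf1, a ubiquitin ligase for receptors and Smads, rose at both times (0.39 and 0.31), as did Rgma (0.57 and 0.55). Tgfbr3 rose at 4 hrs (0.65), Eng rose at 12 hrs (0.48), and Vasn, Wwp1 and Lrrc32 fell at 4 hrs. Those that fell at 12 hrs were Skil (-0.91), Pmepa1 (-0.76), Smad7 (-0.42), Smurf2 (-0.39), Ski (-0.37), Smad5 (-0.26) and Cd109 (-0.22). With IFN-γ alone against untreated cells at 12 hrs, 3 of the 41 rose and 0 fell. Of all 8971 genes, 577 rose and 253 (2.82%) fell there. With both factors against Activin-A 2 rose and 6 fell, beside 554 and 309 (3.44%) of all genes. Pmepa1 was at -0.29 (SE 0.20, edgeR adjusted p = 0.489) without Activin-A and -1.24 (SE 0.14, edgeR adjusted p = 2.13e-12) with it, and Skil at -0.55 (SE 0.32, edgeR adjusted p = 0.379) and -1.26 (SE 0.29, edgeR adjusted p = 0.000827). The interaction was called for 0 of the 41 listed genes. Between the times, 4 of 44 rose and 6 fell, which is 22.7% of the listed genes beside 26.6% of all. Bambi (0.64), Usp11 (0.52), Rgma (0.43) and Snx6 (0.22) rose. Pmepa1 (-1.22), Skil (-0.72), Vasn (-0.56), Smad7 (-0.47), Ski (-0.23) and Strap (-0.11) fell.

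**Figure D5:**
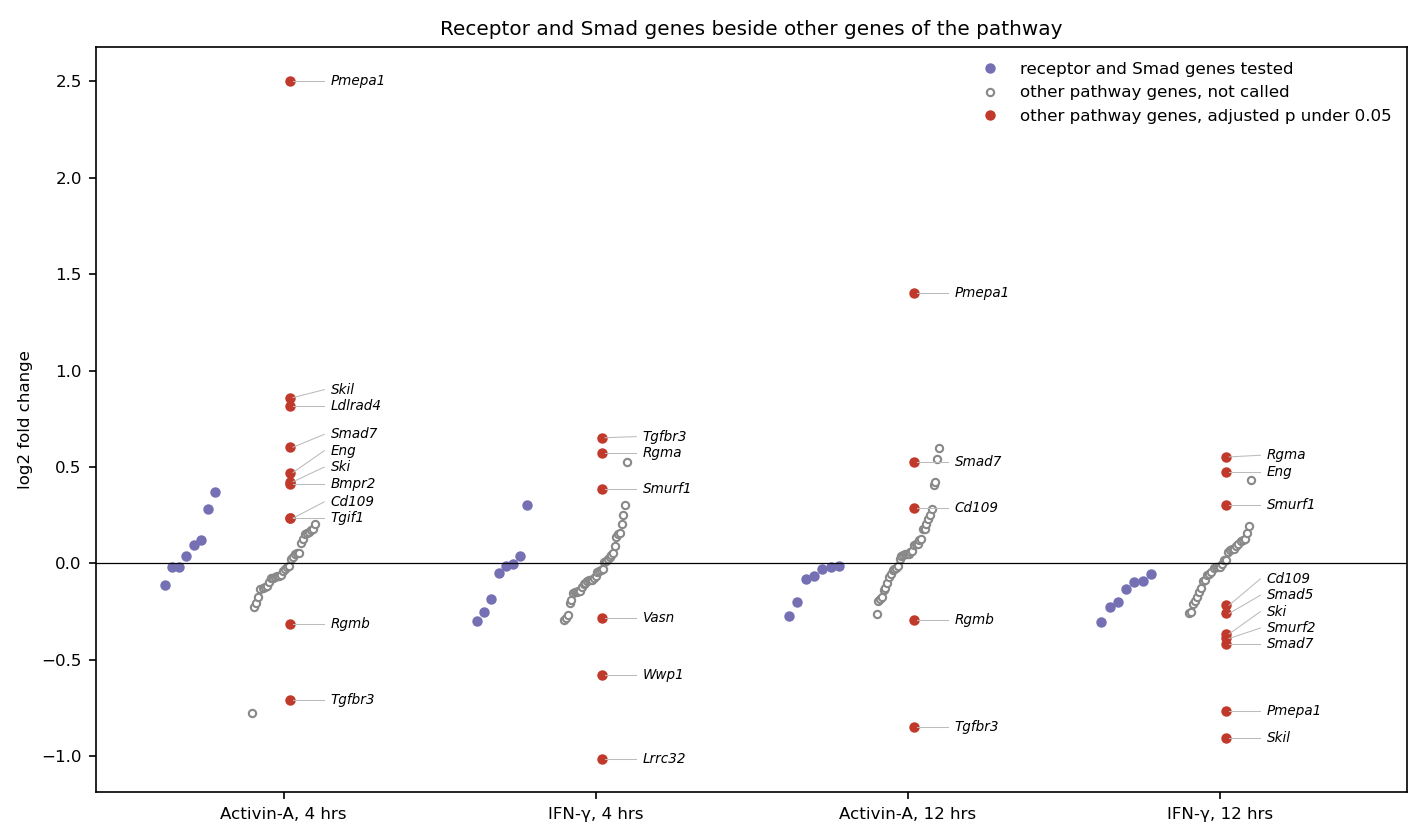
Log2 fold change of the receptor and Smad genes tested (purple) beside other genes of the pathway, called (red, with names) or not (open), for each factor averaged over the other at 4 and 12 hrs. The members lie between -0.30 and 0.37 in all 4 comparisons, and Pmepa1 reaches 2.50 with Activin-A at 4 hrs.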

How the data were processed

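mRNA of YUMM3.3 cells was measured by BRB-seq in 32 wells. The authors deposited raw counts per gene, as integers without normalization. Each gene listed had a count above 0 in at least 4 wells, so genes seen in fewer wells may have been left out of the table. The submitters' processing notes name STAR 2.7.10b, featureCounts, DESeq2 1.36.0 and the build GRCm39 (mm39). Gene annotation, strand setting and handling of unique molecular identifiers are not given in the sources used here, so that duplicate reads could remain in the counts. Symbols were taken from a reference table of Ensembl gene names, which matched 12437 of 12451 genes, and transcript lengths and overlapping genes from GENCODE M21 (GRCm38). Members and lists were chosen with earlier results of these data known. All 10 members, the listed pathway genes called in averaged contrasts, readouts of each factor (Ccn2, Irf1) and the 3 genes most like each called member were named, except for items not reported here.

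Wells were grouped as labelled. Counts were filtered (filterByExpr), scaled by TMM (factors 0.964 to 1.05) and tested with edgeR 4.0.16 (quasi-likelihood test) in R 4.3.3, over the 16 wells of a time or all 32 between times, with Benjamini-Hochberg adjustment over all genes of each of 18 contrasts. Log2 CPM for likeness used a prior count of 2. Alternatives were DESeq2 1.42.0, RLE normalization or total counts, no filter or at least 10 counts in every sample, a replicate block, other wells in the fit, an adjusted p under 0.01 and each well left out. For members under the filter, combinations of no filter with these were added after seeing the data. On simulated data for Activin-A against untreated cells at 12 hrs (8847 genes), 67 of 100 genes changed 1.5-fold and 100 of 100 changed 2-fold were recovered, with 6 false calls. Figures were drawn with Python 3.11.15.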

Additional observations from a re-analysis of the deposited data

Results flagged for a closer look

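In 72 groups of 4 wells, the lowest or highest well was compared with the others of its group, and 2 wells lay far from the rest. Acvr2a in Activin-A at 4 hrs had its lowest well at 7.00 CPM, with the other 3 between 9.01 and 9.17. Acvr2b in IFN-γ at 4 hrs had its lowest well at 4.38 CPM, with the other 3 between 5.96 and 6.08. Chance alone flags about 1 in 20 groups, and both genes had between 3 and 14 counts in these wells.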

How the results depend on the processing

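Across 4207 comparisons of a member's log2FC with an alternative (17 more, for which DESeq2 gave no adjusted p, were left out), 152 concerned calls, of which 140 were kept, 12 were lost and 0 changed sign. Of the 4055 that concerned values not called, 13 were called in the alternative and 196 changed sign without a call. At an adjusted p under 0.01, Tgfbr2 between the times over all treatments (edgeR adjusted p = 0.0333) was not called. Acvr1, Tgfbr1 and Smad2 were still called there. The numbers of members called with IFN-γ averaged over Activin-A went from 0 to 1 when totals alone scaled the wells, at 4 hrs (Smad3) and at 12 hrs (Tgfbr2), and at 4 hrs also with all 32 samples in the fit (Smad3). In untreated cells at 12 hrs against 4 hrs it went from 0 to 1 (Tgfbr2) with only the groups compared. With 1 well left out, the number called ranged from 0 to 1 for Activin-A averaged at 4 hrs (Acvr1, without replicate 1 of Activin-A or of both factors), from 0 to 1 for IFN-γ averaged at 4 hrs (Smad3, without replicate 4 of both factors), from 0 to 1 at 12 hrs (Tgfbr2, without replicate 3 of Activin-A), from 0 to 1 for untreated cells between the times (Tgfbr2, without replicate 4 at 4 hrs) and from 3 to 5 between the times over all treatments. In that last comparison Tgfbr2 was lost without replicates 1, 2 or 3 of untreated cells, 3 of Activin-A, 2 or 3 of IFN-γ or 1 of both factors at 4 hrs, and without replicate 1 of untreated cells, 2 of Activin-A, or 1 or 2 of IFN-γ at 12 hrs, whereas Acvr1b was called without replicate 2 of Activin-A at either time or 4 of both factors at 4 hrs, and with at least 10 counts in every sample (adjusted p = 0.0467, edgeR). The causes were not tested.

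Same-numbered wells of different groups did not deviate together (mean r = -0.0035 over 48 pairs, 0 above 0.1). No pairing by replicate number was thus seen. Most of the spread between wells was of the size that counting gives, so a weak pairing could be hidden. A fit with the replicate block called the same number of members in each comparison: 4 between the times and 0 in the others. Depth limits Acvr2a, Acvr2b and Acvr1c most, with medians of 7, 5.5 and 0 counts per well.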
